A study of Mus musculus with 6 samples.

Results

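The laminin chain genes Lama2, Lama4, Lama5, Lamb1, Lamb2 and Lamc1 and the linker genes Nid1, Nid2, Hspg2 and Agrn were examined in mouse caudal artery, which runs along the tail, with and without the receptor gene Notch3. They were chosen by name, as every probe set whose only gene symbol in the array's annotation is 1 of these 10 genes. The 10 genes had 21 of the 45037 probe sets on the array, and 18 of the 21 passed the filter on low values, as did 27027 probe sets in all. The arteries came from Notch3+/+ and Notch3-/- mice at 4 weeks (P28), with 3 RNA pools of each genotype. Notch3+/+ pools 1, 2 and 3 held arteries of 4, 3 and 3 mice, and each Notch3-/- pool held arteries of 4 mice. Pools carry the replicate numbers of the labels, which call them biological replicates. The labels do not state the strain, the sex, the targeted Notch3 allele, a batch or a scan day.

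Laminins are trimers of an α, a β and a γ chain, and many of them polymerise into the sheet that anchors a basement membrane to the cell surface. The α chain binds integrins, dystroglycan and other receptors. Nidogens bind the laminin γ1 chain and type IV collagen and so tie the laminin and collagen networks together, while perlecan and agrin are large heparan sulphate proteoglycans that bridge laminin, growth factors and receptors. In an artery such sheets lie under the endothelium and around each smooth muscle cell, the cell that carries Notch3.

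The arrays carried the smooth muscle markers of an artery and matched their genotype labels. Acta2 (smooth muscle actin) read 13.20 ± 0.04 (SD, n = 3) in Notch3+/+ arteries on the log2 scale of the deposited values, which ended at 13.38. Notch3 read 9.94 to 10.09 in the Notch3+/+ and 5.87 to 6.51 in the Notch3-/- pools on its brighter probe set, and fell by 3.72 (limma adjusted p = 0.000529). Notch3-/- pool 2 stood apart on the first principal component, at 39.52 against -17.09 to 5.85 for the other arrays. Its middle 18S rRNA control probe set read 7.80, against 5.51 to 6.55 elsewhere. Over all tested probe sets, this pool was the lowest of the 6 in 28.3%, and the highest in 25.8%. Several changes below are therefore also given without it. The total RNA came from whole arteries, so fewer cells of a type and less RNA per cell cannot be told apart.

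Among the 10 genes, Lama5 and Agrn read lower in every Notch3-/- pool than in every Notch3+/+ pool, Hspg2 read lower mainly in Notch3-/- pool 2, Nid1 read slightly higher, and the remaining chains differed by 0.15 or less on their brightest probe set. None of the 18 probe sets passed an adjusted p of 0.05 in limma, fitted over all 27027 probe sets, of which 68 passed, or 0.252%. At an unadjusted p under 0.05 there were 4 of 18, namely both tested Lama5 probe sets, Agrn and the brightest of Nid1, beside 11.4% of all probe sets. By direction, 3 of the 4 were lower and 1 was higher, beside 4.85% and 6.5% of all. Of the 18, 9 read lower and 9 higher, with a median change of 0.013, against -0.01 over all tested probe sets. Over all tested probe sets 51.8% read lower and 47.3% higher, which is the background for the counts of direction below. Between genotypes there was no overlap of pools for 4 lower probe sets and 1 higher one, beside 7.75% and 8.43% of all probe sets. The 4 lower ones were both tested Lama5 probe sets, Agrn and a dimmer Lamb1 probe set. By brightest probe set, Lama5 and Agrn separated as lower and Nid1 as higher, beside 7.88% and 9.46% of all genes. All changes below are Notch3-/- minus Notch3+/+ in log2 units with 3 pools per genotype, and every adjusted p comes from limma over all tested probe sets.

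**Figure D1:**
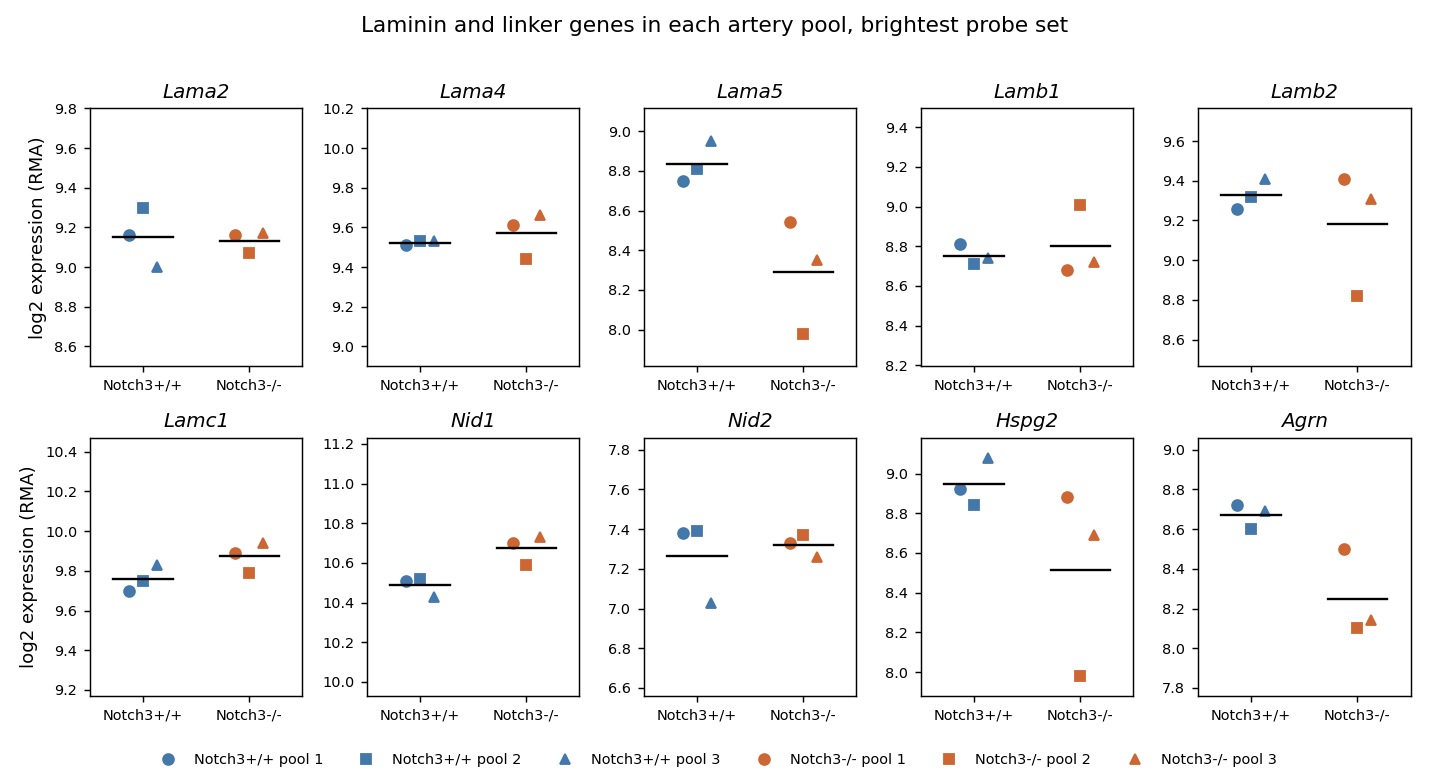
Log2 expression of each gene's brightest probe set (vertical axis, the same height of 1.3 log2 units in every panel) in the 3 Notch3+/+ pools (blue) and the 3 Notch3-/- pools (orange), with circles, squares and triangles for pools 1, 2 and 3 and a black line at each mean. The genotypes separate for Lama5, Agrn and Nid1 and overlap for the other 7 genes, and the orange square (Notch3-/- pool 2) is the lowest point for Lama5, Hspg2, Agrn, Lamb2 and Lama4.

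Lama5 encodes laminin α5, a main α chain of endothelial and many epithelial basement membranes. Its brightest probe set (1427009_at) read 8.75, 8.81 and 8.95 in the Notch3+/+ pools and 8.54, 7.98 and 8.35 in the Notch3-/- pools. Every Notch3-/- value lay below every Notch3+/+ value, and Notch3-/- pool 2 was lowest. The means were 8.84 ± 0.10 and 8.29 ± 0.28 (SD, n = 3), a change of -0.55 (SE 0.14, 95% interval -0.88 to -0.21), or 1.46-fold, with an unadjusted p of 0.00612 and an adjusted p of 0.248 from limma. The second probe set (1427010_s_at) read 8.09, 8.13 and 8.33 in Notch3+/+ and 7.87, 7.52 and 7.65 in Notch3-/- pools. It too separated the genotypes, with a change of -0.50 (SE 0.12), an unadjusted p of 0.00275 and an adjusted p of 0.198 from limma, the smallest of the 18. Without Notch3-/- pool 2 the changes were -0.39 and -0.42, with adjusted p of 0.318 and 0.331. With arrays weighted by limma's estimate of their quality, both passed (adjusted p = 0.0315 and 0.0238), in a fit where 3.62% of all probe sets passed. In that fit Notch3+/+ pool 2 (weight 2.938) and Notch3-/- pool 3 (weight 3.042) carried most of the weight of their groups. The third Lama5 probe set lay below the filter level, at 2.23 to 2.61 over the 6 arrays.

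Agrn encodes agrin, the heparan sulphate proteoglycan that clusters acetylcholine receptors at the neuromuscular junction and binds laminin and dystroglycan elsewhere. Its tested probe set (1426670_at) read 8.72, 8.60 and 8.69 in the Notch3+/+ pools. In the Notch3-/- pools it read 8.5, 8.10 and 8.14, each below the lowest Notch3+/+ value. The means were 8.67 ± 0.06 and 8.25 ± 0.22 (SD, n = 3), a change of -0.42 (SE 0.12, 95% interval -0.70 to -0.15), or 1.34-fold, with an unadjusted p of 0.00807 and an adjusted p of 0.266 from limma. Without Notch3-/- pool 2 the change was -0.35 (adjusted p = 0.435). In the fit with array weights, which rested mostly on 1 pool of each genotype, it was -0.44 and passed (adjusted p = 0.0377). The dim second probe set, below the filter level, overlapped between genotypes, at 3.52 to 3.87 in the Notch3+/+ and 3.38 to 3.63 in the Notch3-/- pools.

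Hspg2 encodes perlecan, the main heparan sulphate proteoglycan of vessel basement membranes. Its brightest probe set (1418670_s_at) read 8.92, 8.84 and 9.08 in the Notch3+/+ pools and 8.88, 7.98 and 8.69 in the Notch3-/- pools. Notch3-/- pool 2 lay far below the rest, while Notch3-/- pool 1 lay within the Notch3+/+ range. The change was -0.43 (SE 0.22, 95% interval -0.94 to 0.08, adjusted p = 0.511 from limma), from 8.95 ± 0.12 to 8.52 ± 0.47 (SD, n = 3). The other probe set (1418669_at) had the same pattern, at 8.60, 8.72 and 8.88 against 8.61, 7.60 and 8.51, and a change of -0.49. Without Notch3-/- pool 2 the changes were -0.16 and -0.17, so 1 pool supplied most of the mean difference, and with array weights they were -0.23 and -0.27 (adjusted p = 0.326 and 0.304). This pool was 0.80 and 0.96 below the mean of the other Notch3-/- pools on the respective probe sets.

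The RefSeq table of mouse build GRCm38.p6 held start-site windows for 7 of the 10 genes (Lama2, Lama5, Lamb1, Lamb2, Nid1, Hspg2 and Agrn, the last with 2 starts). Each window runs from 250 bases before to 50 bases after an annotated start. Windows are shown for the linkers and the chain with the largest differences between genotypes, as Lama5, Agrn and Hspg2 read lower and Nid1 read higher. Capitals mark TGGGAA, the core letters bound by RBPJ, the DNA-binding partner of Notch, or GGGCGG, the box bound by Sp1, on either strand (reverse complements TTCCCA and CCGCCC).
Lama5, minus strand, chr2:180225810-180226109: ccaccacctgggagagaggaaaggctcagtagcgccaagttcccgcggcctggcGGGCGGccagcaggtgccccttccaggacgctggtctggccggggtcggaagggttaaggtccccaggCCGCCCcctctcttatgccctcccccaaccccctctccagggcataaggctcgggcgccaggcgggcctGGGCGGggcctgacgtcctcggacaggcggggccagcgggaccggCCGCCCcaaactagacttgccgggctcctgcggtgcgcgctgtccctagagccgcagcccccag
Agrn, minus strand, chr4:156197439-156197738: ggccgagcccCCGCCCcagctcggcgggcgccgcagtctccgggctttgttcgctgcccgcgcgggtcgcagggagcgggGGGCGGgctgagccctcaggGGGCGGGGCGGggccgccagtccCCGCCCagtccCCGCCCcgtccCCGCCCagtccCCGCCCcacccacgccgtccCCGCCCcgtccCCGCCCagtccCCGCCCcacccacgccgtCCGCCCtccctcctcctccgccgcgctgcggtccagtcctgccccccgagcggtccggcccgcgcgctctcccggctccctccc
Hspg2, plus strand, chr4:137468553-137468852: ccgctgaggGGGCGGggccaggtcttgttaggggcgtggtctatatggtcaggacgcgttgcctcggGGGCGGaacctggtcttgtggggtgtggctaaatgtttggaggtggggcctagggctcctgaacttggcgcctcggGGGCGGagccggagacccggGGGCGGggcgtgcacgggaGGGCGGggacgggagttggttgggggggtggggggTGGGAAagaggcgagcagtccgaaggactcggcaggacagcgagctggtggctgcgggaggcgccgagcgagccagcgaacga
Nid1, plus strand, chr13:13437352-13437651: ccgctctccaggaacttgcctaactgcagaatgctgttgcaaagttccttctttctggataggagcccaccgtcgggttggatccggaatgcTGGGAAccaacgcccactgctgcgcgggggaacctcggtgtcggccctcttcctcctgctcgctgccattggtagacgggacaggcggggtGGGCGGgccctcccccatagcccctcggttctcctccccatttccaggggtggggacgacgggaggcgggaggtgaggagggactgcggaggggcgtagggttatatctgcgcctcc

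The RBPJ core was found in 4 of the 8 windows of these genes, and 25.6% of all 32851 windows held it. Lama5 and both Agrn windows held none, while Hspg2, Nid1 and Lama2 held 1 match each and Lamb1 held 2. The match in Hspg2 began 33 bases before the start, and the match in Nid1 began 158 bases before it. The Sp1 box was found in 7 of the 8 windows, against 35.7% of all, and some of its matches in Agrn overlapped. The Agrn window shown held 12 Sp1 boxes, Hspg2 5, Lama5 4 and Nid1 1. The Agrn, Lama5 and Hspg2 windows shown were also rich in G and C, at 83.3%, 72.7% and 70.3%, against a median of 52.7% over all windows, whereas Nid1 was at 64.7% and Lamb2, the only window without an Sp1 box, was at 44.0%. The palindromic letters CACGTG, an E-box, occurred in 0 of the 8 windows and in 7.15% of all. A match to letters is a description of the window, and binding was not measured.

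The other α chains differed little between genotypes. Lama4 encodes laminin α4, which shares endothelial basement membranes with α5. Its brightest probe set (1424807_at) read 9.51, 9.53 and 9.53 in Notch3+/+ pools and 9.61, 9.44 and 9.66 in Notch3-/- pools, which surround the Notch3+/+ values. The change was 0.05 (95% interval -0.15 to 0.24, adjusted p = 0.854 from limma). The dimmer Lama4 probe set (1424808_at) spread more, over 6.05 to 6.68 and 6.09 to 6.76, with a change of 0.17 (95% interval -0.33 to 0.67) that was 0.37 without Notch3-/- pool 2. Lama2, the laminin α2 gene of muscle and peripheral nerve whose loss causes a muscular dystrophy, read 9.16, 9.30 and 9.0 in Notch3+/+ and 9.16, 9.07 and 9.17 in Notch3-/- pools. Its change was -0.02 (95% interval -0.24 to 0.20, adjusted p = 0.952).

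Differences between 2 genes on the same array were compared for 5 pairs that can take the same place in a laminin trimer or serve as related linkers. Lama5 minus Lama4 was -0.76, -0.72 and -0.58 in the Notch3+/+ pools and -1.07, -1.46 and -1.31 in the Notch3-/- pools, with no overlap. The genotypes differed by -0.59 in this measure (exact two-sided permutation p = 0.10, the smallest that 3 against 3 allows, and 0.25 adjusted over the 5 pairs). Lama5 minus Lama2 was -0.41, -0.49 and -0.05 in Notch3+/+ and -0.62, -1.09 and -0.82 in Notch3-/- pools. It differed by -0.53, also without overlap and with the same exact p of 0.10. Both differences use the same Lama5 values, and Lama4 and Lama2 changed by 0.05 and -0.02, so they largely restate the Lama5 change. A design of this size could not reach 0.05 by this test. These are differences of probe set signals and carry no ratio of transcript amounts.

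**Figure D2:**
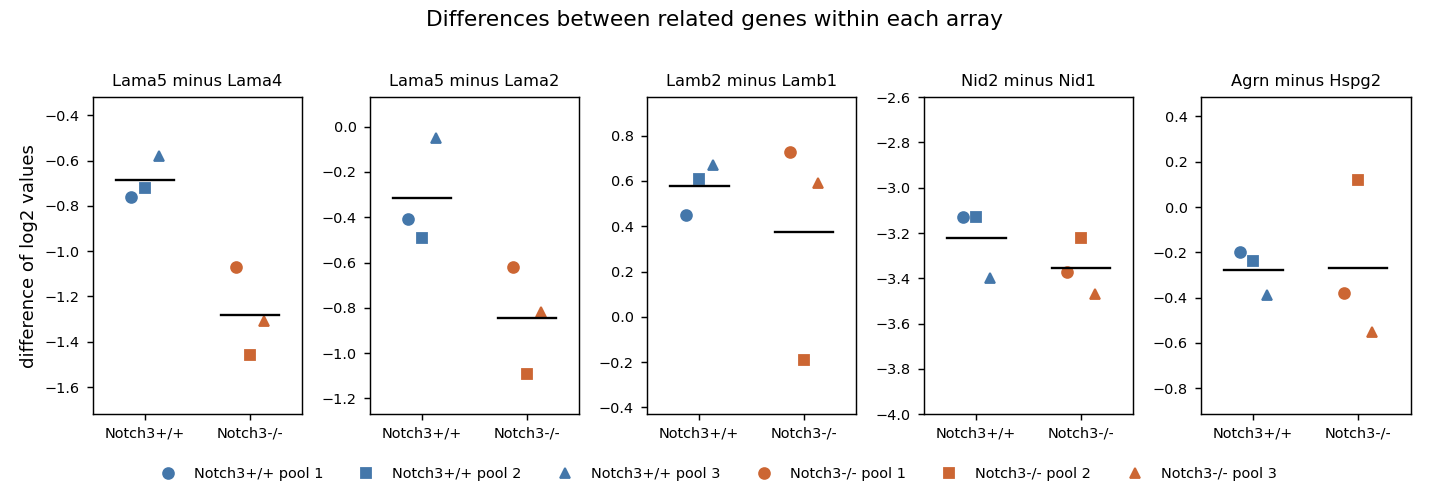
Difference of the log2 values of 2 genes on the same array (vertical axis, 1.4 log2 units in every panel) for the 5 pairs, with blue and orange points for the Notch3+/+ and Notch3-/- pools, marker shapes for pools 1 to 3 and black lines at the means. The genotypes separate for Lama5 minus Lama4 (-0.76 to -0.58 against -1.46 to -1.07) and Lama5 minus Lama2, and overlap for the other 3 pairs.

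The β chain genes gave no common direction. Lamb2 encodes laminin β2, the β chain of the neuromuscular junction and of mature vessel walls and kidney filters. It read 9.26, 9.32 and 9.41 in Notch3+/+ pools and 9.41, 8.82 and 9.31 in Notch3-/- pools. Only Notch3-/- pool 2 lay outside the Notch3+/+ range. The change of -0.15 (95% interval -0.51 to 0.21, adjusted p = 0.724 from limma) became 0.03 without that pool. Lamb1, the widely expressed β1 chain gene, had 3 tested probe sets whose signs disagreed. The brightest (1424114_s_at) read 8.81, 8.71 and 8.74 against 8.68, 9.01 and 8.72, a change of 0.05. Here Notch3-/- pool 2 was the highest array, and without it the change was -0.05.

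The second Lamb1 probe set (1451241_at) read 6.74, 6.64 and 6.63 in Notch3+/+ and 6.58, 6.49 and 6.54 in Notch3-/- pools. It separated the genotypes by a small margin, with a change of -0.13 (95% interval -0.31 to 0.04, adjusted p = 0.548 from limma). The third (1424113_at) pointed the other way, with a change of 0.21 (95% interval -0.04 to 0.46, adjusted p = 0.512) and values of 5.50 to 5.75 and 5.75 to 6.02. The remaining Lamb1 probe set lay below the filter level, at 2.22 to 2.60. Lamb2 minus Lamb1 on the same array was 0.45, 0.61 and 0.67 in Notch3+/+ and 0.73, -0.19 and 0.59 in Notch3-/- pools, a difference of -0.20 (exact permutation p = 0.80, and 0.90 adjusted over the 5 pairs) that became 0.08 without Notch3-/- pool 2.

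Lamc1 encodes laminin γ1, the γ chain of nearly all vessel laminins and the one that nidogen binds. Its brightest probe set (1423885_at) read 9.70, 9.75 and 9.83 in Notch3+/+ and 9.89, 9.79 and 9.94 in Notch3-/- pools. The groups overlapped through Notch3-/- pool 2 alone, and the change was 0.11 (95% interval -0.08 to 0.30, adjusted p = 0.626 from limma). The dimmer probe set (1423886_at) read 6.56, 6.40 and 6.34 against 6.54, 5.72 and 6.61. Its change of -0.14 rested on Notch3-/- pool 2, which was 0.86 below the mean of the other Notch3-/- pools, and became 0.14 without it.

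The nidogen genes, whose proteins join the laminin and collagen networks, read level or slightly higher in Notch3-/- arteries. Nid1 was read by 3 probe sets, all with positive changes. The brightest (1416808_at) read 10.51, 10.52 and 10.43 in Notch3+/+ and 10.70, 10.59 and 10.73 in Notch3-/- pools, which lay above every Notch3+/+ value. The change was 0.19 (SE 0.08, 1.14-fold), with means of 10.49 ± 0.05 and 10.67 ± 0.07 (SD, n = 3), an unadjusted p of 0.0462 and an adjusted p of 0.435 from limma. Without Notch3-/- pool 2 it was 0.23.

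The other Nid1 probe sets overlapped between genotypes. The first of them (1448469_at) read 8.78, 8.76 and 8.59 against 9.08, 8.60 and 8.86, a change of 0.14 (95% interval -0.17 to 0.44) that was 0.26 without Notch3-/- pool 2. The second (1441519_at) read 5.34, 5.56 and 5.56 against 5.32, 6.01 and 5.56, also a change of 0.14, which became -0.05 without Notch3-/- pool 2. Nid2, the second nidogen, read 7.38, 7.39 and 7.03 in Notch3+/+ and 7.33, 7.37 and 7.26 in Notch3-/- pools, a change of 0.05 (95% interval -0.21 to 0.32, adjusted p = 0.878 from limma). Nid2 minus Nid1 differed by -0.13 between genotypes with overlapping pools (exact permutation p = 0.30, and 0.50 adjusted over the 5 pairs). Agrn minus Hspg2, the proteoglycan pair, differed by 0.01 (exact permutation p = 0.90, and 0.90 adjusted over the 5 pairs), with -0.39 to -0.20 in the Notch3+/+ and -0.55 to 0.12 in the Notch3-/- pools.

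**Figure D3:**
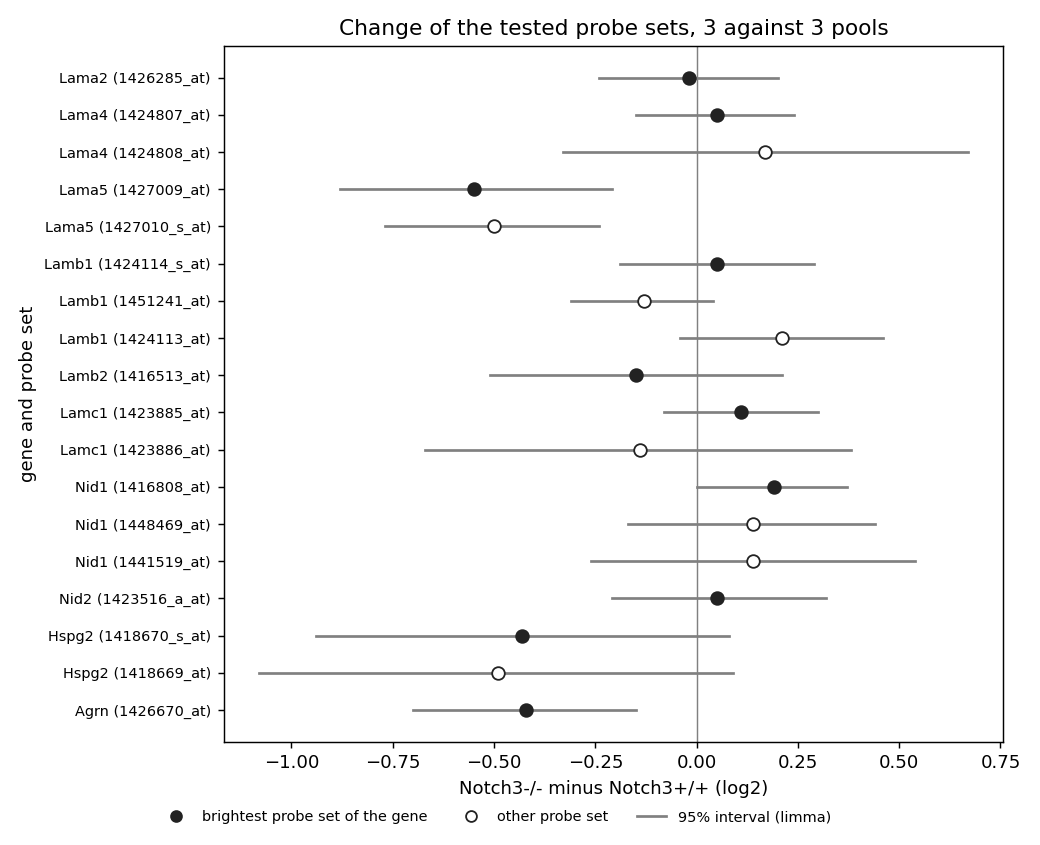
Change of each of the 18 tested probe sets (horizontal axis, Notch3-/- minus Notch3+/+ in log2 units), with filled points for a gene's brightest probe set, open points for its others and grey bars for the 95% interval from limma. The intervals of Lama5 (both), Agrn and the brightest Nid1 probe set do not include 0 before adjustment, and no probe set passed after it.

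Notch3-/- pool 2 was the lowest of the 6 arrays for 9 of the 18 probe sets, against 28.3% of all tested probe sets, and the highest for 3 of the 18, against 25.8%. Left out, it moved Hspg2 from -0.43 to -0.16, and it turned the sign of Lamb2, of the brightest Lamb1 probe set, of the dimmer Lamc1 probe set, of the dimmest tested Nid1 probe set and of Lama2, which were all within 0.15 of 0 with it. The directions of Lama5, Agrn and Hspg2 and of the 2 brighter Nid1 probe sets stayed. The pool's 18S rRNA control read highest of the 6 arrays, as given above. The 3′ minus 5′ difference of its actin control was 0.58, against 0.35 to 0.42 in the other arrays. The same difference for the Gapdh control, at -0.11, lay within the range of the others, -0.19 to -0.05. For the 18S rRNA and pyruvate carboxylase controls it was 0.35 and 1.36, also within the other arrays (0.15 to 0.81 and 1.17 to 1.38). The part of these signals in the members' values was not tested.

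**Figure D4:**
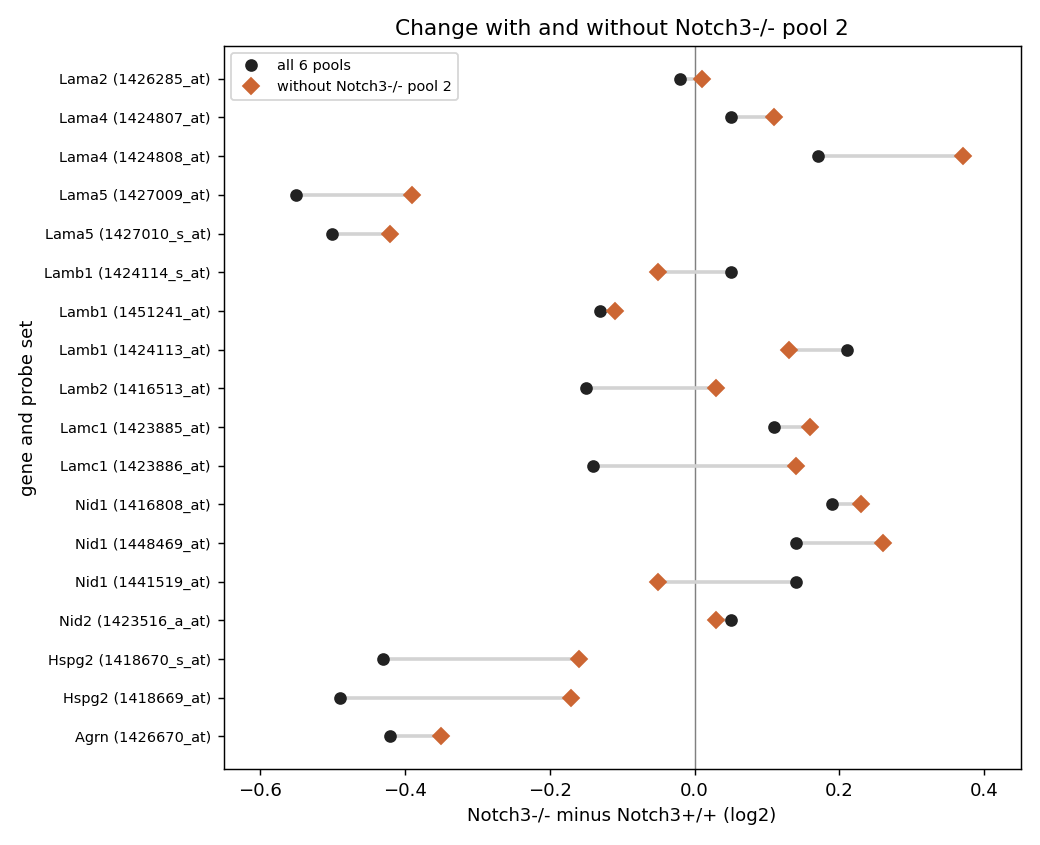
Change of each tested probe set (horizontal axis, Notch3-/- minus Notch3+/+ in log2 units) with all 6 pools (black circles) and without Notch3-/- pool 2 (orange diamonds), joined by grey lines. Hspg2 moved from -0.43 to -0.16 and from -0.49 to -0.17, Lama5 and Agrn stayed at -0.35 or lower, and 5 probe sets changed sign.

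Markers of the cells that the artery could hold are given here beside the laminin and linker values. Of 12 endothelial markers, 9 read lower in Notch3-/- arteries, with a median of -0.24, and 0 passed in limma while 4 had an unadjusted p under 0.05, all lower, against 4.81% of all genes. Nos3, the endothelial nitric oxide synthase gene, read -0.47 (adjusted p = 0.24) and Egfl7 -0.27 (adjusted p = 0.355). The summed antilog signal of the 12 markers was 7071 to 7837 in the Notch3+/+ and 6023 to 6828 in the Notch3-/- pools, and it was lowest in Notch3-/- pool 2. Of the 12, 8 read lower without Notch3-/- pool 2, and the median was then -0.19. None of the 12 lay below the filter level. Of 6 Schwann cell and nerve markers tested, 5 read lower, with a median of -0.12, and 0 passed in limma while 3 had an unadjusted p under 0.05, all lower. Without Notch3-/- pool 2, 3 of these 6 read lower and the median was -0.07. Summed signals were 4013 to 4847 and 3574 to 4759. Gfra3 read -0.33 (adjusted p = 0.182) and Ncam1 -0.22 (adjusted p = 0.359).

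Of 8 smooth muscle markers, 4 read lower and 4 higher, with 2 each way at an unadjusted p under 0.05, a median of -0.01 and summed signals of 23299 to 26801 and 25377 to 25871. Des (desmin) rose by 2.01 (adjusted p = 0.00327 from limma) and was the 1 marker of this list to pass, while Cnn1 read 0.51 (adjusted p = 0.138). Of 10 fibroblast markers, 8 read higher, with 4 at an unadjusted p under 0.05, all higher, a median of 0.12 and summed signals of 45481 to 47793 and 46654 to 49853. The matrix gene Dpt rose by 0.58 (adjusted p = 0.0499), a call at the edge of the threshold, and Cd34 read 0.22 (adjusted p = 0.327). All 10 macrophage markers and all 7 mast cell markers read higher, with medians of 0.52 and 0.76, and none passed in limma on its brightest probe set, with 6 and 4 at an unadjusted p under 0.05, against 7.1% of all genes higher at that level. On another probe set the macrophage complement gene C1qb rose by 1.07 (adjusted p = 0.0227 from limma), where its brightest read 0.54 (adjusted p = 0.47). Summed signals were 1313 to 2113 and 2129 to 2678 for the macrophage list and 827 to 1794 and 1456 to 2488 for the mast cell list. Leaving out Notch3-/- pool 2 gave medians of -0.03, 0.13, 0.58 and 0.87 for the smooth muscle, fibroblast, macrophage and mast cell lists. Laptm5 (0.66) and Cd163 (0.58) had the smallest unadjusted p of the macrophage list, and Ms4a2 (0.76) and Kit (0.61) of the mast cell list.

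The skeletal muscle, adipocyte and keratinocyte lists gave 0 calls in limma, with 3 of 9, 2 of 7 and 1 of 5 genes at an unadjusted p under 0.05, against 11.9% of all genes. All 9 skeletal muscle markers tested read lower, with a median of -0.27, but without Notch3-/- pool 2 there were 5 lower and 4 higher and the median was 0.00. Pygm (-0.54) and Tcap (-0.60) had the smallest unadjusted p, and the summed signal ran from 771 in Notch3-/- pool 2 to 1861, around the 1222 to 1660 of the Notch3+/+ pools. Of 7 adipocyte markers 6 read lower, with a median of -0.18, summed signals of 4821 to 5575 and 4659 to 5372, and the smallest unadjusted p for Plin4 (-0.38) and Cidea (-0.23). Of 5 keratinocyte markers 4 read higher, with a median of 0.16 and summed signals of 117 to 126 and 134 to 150, and the smallest unadjusted p for Krtdap (0.60) and Krt5 (0.20). These markers were dim, with Notch3+/+ means from 3.88 (Trp63) to 5.51 (Krt10), against a filter level of 3.825. The adipocyte and keratinocyte medians were -0.23 and 0.17 without Notch3-/- pool 2. The part of any of these cell types in the values of the laminin and linker genes was not tested.

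Receptors of laminin and agrin read lower more often than higher. Of 14 receptor genes, 9 read lower and 5 higher, where 51.8% of all tested probe sets read lower. The median was -0.14, and 0 passed in limma (smallest adjusted p 0.24). An unadjusted p under 0.05 was found for 4, all lower, where 4.81% of all genes were lower at that level. Without Notch3-/- pool 2, 8 read lower and 6 higher, with a median of -0.07, and without Notch3+/+ pool 3 the median was -0.09. For 7 of the 14 every Notch3-/- pool lay below every Notch3+/+ pool, against 7.88% of 12732 genes by their brightest probe set. Bcam, the Lutheran glycoprotein gene whose product binds laminin α5, read 9.82, 9.86 and 9.86 in Notch3+/+ and 9.44, 8.72 and 9.32 in Notch3-/- pools, a change of -0.69 (adjusted p = 0.24). Itga7, the laminin-binding integrin chain of muscle, read 8.51, 8.43 and 8.58 against 8.21, 7.92 and 8.19, a change of -0.40 (adjusted p = 0.24). Both separated the genotypes with Notch3-/- pool 2 lowest. Itga3, another laminin-binding integrin chain, read -0.39 (adjusted p = 0.353). The other genes with separate pools, Sdc2, Itgb1, Itgb4 and Dag1 (dystroglycan), complete that count and read -0.23, -0.39, -0.16 and -0.11. Itgb1 read -0.15 without Notch3-/- pool 2.

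Other structural genes of the basement membrane gave no call. Of 18 collagen and associated genes tested, 12 read lower, where 51.8% of all tested probe sets did. The median was -0.17, and 0 passed in limma while 6 had an unadjusted p under 0.05, 5 of them lower, against 11.9% of all genes in either direction. Single arrays moved the median to -0.03 (without Notch3-/- pool 2, where 10 read lower and 8 higher) and to -0.09 (without Notch3+/+ pool 3). Npnt, the integrin ligand nephronectin, read 9.09, 8.97 and 9.12 in Notch3+/+ and 8.72, 8.69 and 8.61 in Notch3-/- pools, a change of -0.39 (adjusted p = 0.163). Its 5 tested probe sets changed by -0.53 to -0.10. Col4a4, a type IV collagen chain gene, read -0.44 (adjusted p = 0.25), and Smoc2, a calcium-binding matrix protein gene, read 0.36 (adjusted p = 0.363). Col4a3, another type IV collagen chain gene, read -0.28 (adjusted p = 0.438) on its brightest probe set and -0.64 (adjusted p = 0.0746) on another. Of the laminin chain genes outside the 10, Lama3 and Lamc3 were tested and read 0.19 (adjusted p = 0.438 from limma) and -0.12 (adjusted p = 0.702).

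Proteases that act on basement membranes read mostly higher. Of 11 tested, 10 read higher and 1 lower, where 47.3% of all tested probe sets read higher. The median was 0.12, and 0 passed in limma while 3 had an unadjusted p under 0.05, all higher, against 7.1% of genes. Pools did not overlap for 4 of the 11, all higher, against 9.46% of genes. Prss12 encodes neurotrypsin, the protease that cleaves agrin. It read 6.17, 6.23 and 6.28 in Notch3+/+ and 6.71, 6.81 and 6.59 in Notch3-/- pools, a change of 0.48 (SE 0.09, adjusted p = 0.114), with no overlap. Plat, the tissue plasminogen activator gene, read 0.38 (adjusted p = 0.182). Ctss, the cathepsin S gene, which macrophages express, read 0.60 (adjusted p = 0.337), and the part of macrophages in that value was not tested.

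Genes for the sugar chains of perlecan, agrin and dystroglycan were divided or level. Of 16 heparan sulphate genes, 8 read lower and 8 higher, with a median of -0.01, and 0 passed in limma while 3 had an unadjusted p under 0.05, against 11.9% of all genes. Hs3st1, a heparan sulphate sulfotransferase gene, read 8.0, 8.09 and 7.98 in Notch3+/+ and 7.61, 7.66 and 7.46 in Notch3-/- pools, a change of -0.45 (SE 0.09, adjusted p = 0.128). Hs6st2, another sulfotransferase gene, pointed the other way at 0.46 (adjusted p = 0.24), and Extl3, a chain-building enzyme gene, read -0.19 (adjusted p = 0.392). Of 9 dystroglycan glycosylation genes tested, 2 read lower and 6 higher, with a median of 0.00, and 0 passed in limma or had an unadjusted p under 0.05. B4gat1 (0.08), Pomk (0.07) and Gmppb (0.07) had the smallest unadjusted p of that list.

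**Figure D5:**
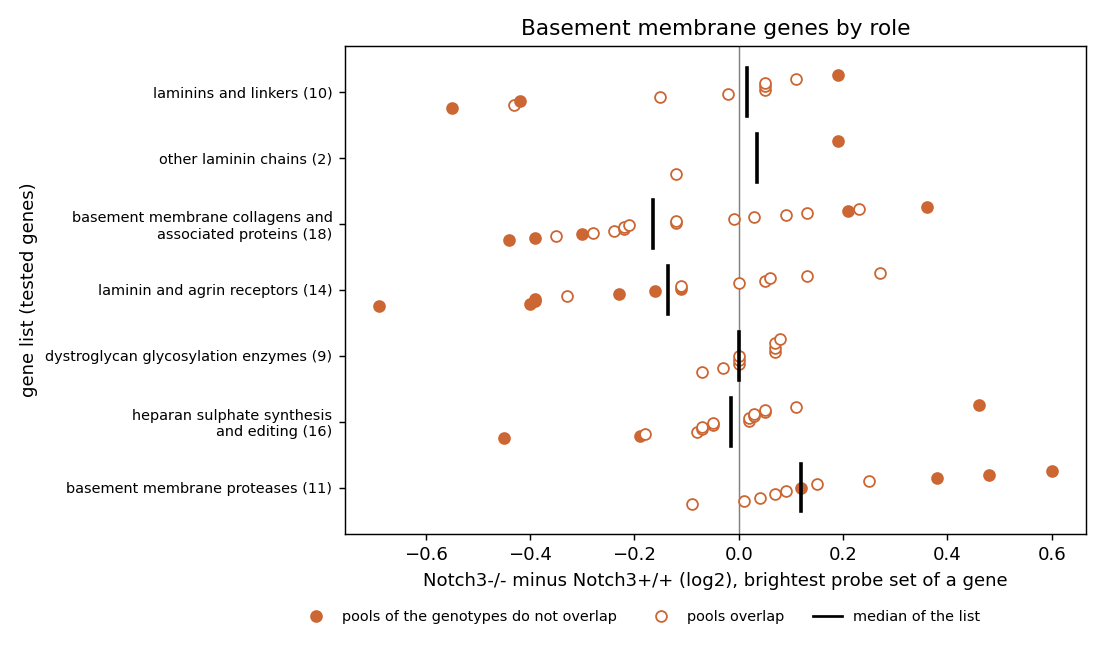
Change of each tested gene (horizontal axis, Notch3-/- minus Notch3+/+ in log2 units, brightest probe set) for the 10 laminin and linker genes and 6 lists of related genes, with the number tested in brackets, filled points where the pools of the genotypes do not overlap, open points where they do, and a black line at each median. The medians run from -0.17 for the collagens and associated proteins to 0.12 for the proteases, and the former was -0.03 without Notch3-/- pool 2.

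The genes whose profiles lay nearest to those of the members were sought among the 12732 tested genes, by the root mean square difference over the 6 arrays after each profile was centred on its own mean. For Lama5, whose own profile had a root mean square spread of 0.324, they were Carns1 (0.0407), Klhdc8b (0.0407) and Atp1b2 (0.0557). For Agrn, with a spread of 0.25, they were Rasl10b (0.0526), Ndrg1 (0.0591) and Serpina3n (0.0607). For Hspg2, with a spread of 0.355, they were Zdhhc1 (0.0699), Cenpb (0.0727) and Ltbp4 (0.0769). For Nid1, with a spread of 0.106, they were Ttc30b (0.0236), Plekhf1 (0.0275) and Fstl1 (0.032). With 6 arrays and this many genes some profiles lie close in any case, and the nearest gene of each of the 10 lay between 0.00687 (Nid2) and 0.0699 (Hspg2). No member was among the 3 nearest genes of another.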

How the data were processed

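The authors deposited log2 values for each probe set. They used RMA, per the submitters' processing notes, a method that subtracts background, brings arrays to common quantiles and combines the probes of a set. No version of it is stated there. That the scale is log2 follows from the values (1.38 to 13.38). Affymetrix MOE430.2 arrays were hybridised with cRNA made from 2.5 µg RNA, per the labels. RMA values carry no detection call, and differences of dim or near-saturated probe sets are compressed.

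Of 45101 probe sets, 64 controls were left out of the tests. The platform annotation named 34945 by 1 symbol, 34741 of them updated by gene number through RefSeq (GRCm38.p6). Probe sets with a mean below the 40th percentile (3.825) were dropped, leaving 27027. Genotype was tested with limma 3.58.1 (lmFit, eBayes) in R 4.3.3, with Benjamini-Hochberg adjustment over all 27027 and a threshold of 0.05. The fit was tested on simulated data with independent noise in each probe set and no outlying array, which does not cover an array such as Notch3-/- pool 2. Each gene was represented by its brightest probe set, and folds are antilogs. Antilog sums describe marker lists, and the brightest genes of a list weigh most in them. All 10 genes and all their probe sets are described. Of each related list the called genes or up to 3 with the smallest unadjusted p are named, and of each cell type list up to 2. The 3 nearest profiles were found for each member. Others are named as completing a count, as a check of the tissue or for a dimmer probe set with a smaller adjusted p. The members, lists and rules were chosen with earlier results of these data known. Alternatives were the level filter, variance model, normalization, array and pool-size weights, the replicate block, the probe set of a gene and the omission of each array. The omission of Notch3-/- pool 2 from the cell type lists was added after seeing the data. The number of arrays, 3 per genotype, limits precision.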

Additional observations from a re-analysis of the deposited data

How the results depend on the processing

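Of 18 member probe sets, 0 passed in the main limma fit, in 9 of the 10 alternatives that kept all arrays, or whichever array was left out. With limma array weights 3 passed (both Lama5 probe sets and Agrn), and 978 probe sets passed over the whole array, against 68. The weights, estimated from the same values, were 0.7631, 2.938 and 0.8409 for Notch3+/+ replicates 1, 2 and 3. For Notch3-/- replicates 1, 2 and 3 they were 0.601, 0.2902 and 3.042. In this fit 1 pool of each genotype therefore carried most of its group's weight. Under array weights the dimmer Lamc1 probe set read 0.12 and Nid2 -0.04, turned from the main sign, and Lama2 read 0.01 with arrays centred on their median. Leaving out 1 array gave 13 (without Notch3+/+ replicate 2) to 62 calls over the whole array, and the count was 17 when Notch3-/- replicate 3 was omitted, 23 for Notch3+/+ replicate 3 and 37 for Notch3-/- replicate 2. It turned no sign for 12 of the 18 probe sets. It spanned 0 for Lama2 (-0.10 to 0.05), Lamb2 (-0.27 to 0.03), Nid2 (-0.06 to 0.11), the brightest Lamb1 (-0.05 to 0.11), the dimmer Lamc1 (-0.30 to 0.14) and the dimmest tested Nid1 probe set (-0.05 to 0.30). Lama5 stayed between -0.67 and -0.39 on its brightest probe set, and Agrn between -0.55 and -0.35. Within arrays, Lamb2 minus Lamb1 ran from -0.38 to 0.08 and Agrn minus Hspg2 from -0.19 to 0.15. The median of the dystroglycan glycosylation list was 0.07 when all tested probe sets of a gene were averaged.

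With the replicate number as a block, 57 probe sets passed over the whole array and 0 of the 18. The deviations of same-numbered arrays correlated at 0.24, 0.05 and -0.07, and those of differently numbered arrays at -0.17 to 0.14. With so few arrays and no batch in the labels, these values cannot tell whether same-numbered arrays were processed together. The block changed no call of a member. The cause of the changes under array weights and of those without single arrays was not tested.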
